A study of Mus musculus with 4 samples.

Results

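The genes described are 8 members of the mouse OAS family, Oas1a, Oas1b, Oas1c, Oas1g, Oas2, Oas3, Oasl1 and Oasl2, and Eif2ak2, which encodes the kinase PKR. They were chosen as a named list of 9 genes, and each had exactly 1 transcript ID among the 32757 RefSeq transcript IDs of the count tables. Total RNA, depleted of ribosomal RNA, was sequenced from 4 libraries of immortalized mouse dermal fibroblasts (imMDFs), 2 of *Tmpo* KO cells and 2 of *Tmpo* WT cells. The cells were grown without any added treatment. *Tmpo* KO cells lack exon 4 of *Tmpo* and with it LAP2alpha, the isoform of lamina-associated polypeptide 2 that resides in the nuclear interior and binds lamin A/C there. Each genotype has 1 library from cells at passage 34 (replicate 1) and 1 from cells at passage 42 (replicate 2). A single line stands for each genotype, which means that effects of the deletion and of the line cannot be told apart. Separate cultures are not named beyond the passages, and p-values therefore reflect the spread between these libraries alone. That spread includes the change between passages, and part of it may be technical. In RNA from whole cultures, more cells that express a gene and more RNA per cell cannot be told apart.

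Active OAS proteins are enzymes that double-stranded RNA activates to make short chains of adenosine joined by 2'-5' bonds (2-5A), a second messenger of the antiviral response. PKR is a second sensor of double-stranded RNA, which phosphorylates the initiation factor eIF2 and so lowers translation. Most of these genes are known as interferon-stimulated genes, transcribed when the factor ISGF3, which holds STAT2 and IRF9, binds interferon-stimulated response elements (ISREs) in their promoters, and fibroblasts are classic producers of, and responders to, interferon-beta.

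Between 12168433 and 19603812 reads per library were given to transcripts, which was 31.4% to 36.7% of the reads in the file, and 12.1% to 13.4% were set aside as ambiguous. Levels are given as counts per 1000000 transcript reads of the library (CPM). The deleted exon was checked first: the *Tmpo* ID NM_011605 had 6 and 6 reads in KO and 903 and 1324 reads in WT at passages 34 and 42. The fibroblast marker list summed to 11807 and 15411 CPM in KO and 13421 and 12852 CPM in WT at passages 34 and 42, with 9 of its 10 genes detected and Pdgfrb at 0. Of the 8 leukocyte and macrophage markers, Cd68 and Itgam were at 0 in every library and Ptprc reached no more than 0.26 CPM. These 3 genes and Pdgfrb have 2 or 3 IDs each, and reads in exons that the IDs share went to the ambiguous reads, so these values do not show that the genes were silent. Among the fibroblast markers Thy1 was called higher in KO, with 1328 and 757 CPM in KO and 308 and 275 CPM in WT (log2 fold change 1.80, adjusted p = 0.00469 by edgeR). Dcn, which has 2 IDs, had 4.37 and 3.93 CPM in KO and 12.3 and 6.12 CPM in WT (log2 fold change -1.15, adjusted p = 0.194). The summed level of the leukocyte and macrophage list was 26.2 and 18.3 CPM in KO and 17.8 and 13.2 CPM in WT at passages 34 and 42. Both KO libraries lay above both WT libraries for this sum, with the highest value in the KO library of passage 34. The keratinocyte, endothelial and melanocyte lists summed to 11.5 to 17.04, 5.31 to 6.08 and 32.5 to 45.1 CPM in KO and to 14.7 to 15.5, 5.18 to 6.12 and 29.1 to 38.5 CPM in WT. The part of these markers in the results was not tested.

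The KO library of passage 42 stood apart for most of the family. It was the highest of the 4 libraries for 7 of the 8 members with any read, the exception being Oasl1. The share of all transcripts that were highest in that library was not computed. Summed over the OAS family, reads made up 52.0 CPM in KO and 40.1 CPM in WT at passage 34, and 194 CPM in KO and 37.2 CPM in WT at passage 42. The KO libraries of both passages lay above both WT libraries for 5 of the 8 members (Oas1a, Oas1g, Oas2, Oas3 and Oasl2) and overlapped them for 3 (Oas1c, Oasl1 and Eif2ak2). Among the 7 members that passed the filter on low counts (at least 1 CPM in both libraries of at least 1 genotype), 4 had both KO libraries above both WT libraries, as did 23.2% of the 13855 transcripts tested. Of these 4, Oas1a passed the filter through KO alone, with both WT libraries under 1 CPM, so its order was favoured by the filter. With edgeR's quasi-likelihood test and a Benjamini-Hochberg adjusted p under 0.05, 1 of the 7 was called, Oasl2, and it was higher in KO. Over all tested transcripts 381 were called, which is 2.75%, and 209 were higher in KO, which is 1.51%. The count depended on single libraries. Without the KO library of passage 34, 6 members were called, all higher (Oas1a, Oas1c, Oas1g, Oas2, Oasl2 and Eif2ak2), when 842 of 14259 transcripts (5.91%) were called and 515 (3.61%) were higher. In that fit 8 members were tested, and Oas1a and Oas1g passed the filter through the KO library of passage 42 alone. Without the KO library of passage 42, 0 were called with 2 at an unadjusted p under 0.05, and without the WT library of passage 34 or passage 42, 0 were called with 4 and 3 at an unadjusted p under 0.05, in each case by edgeR's quasi-likelihood test. These 3 fits called 8.52%, 1.21% and 0.761% of the transcripts they tested. With all 4 libraries, 12.8% of the transcripts tested had an unadjusted p under 0.05. An exact two-sided permutation test of 1 gene over 2 and 2 libraries cannot go below p = 0.333, and the adjusted p-values draw on the spread of all transcripts in the fit.

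**Figure D1:**
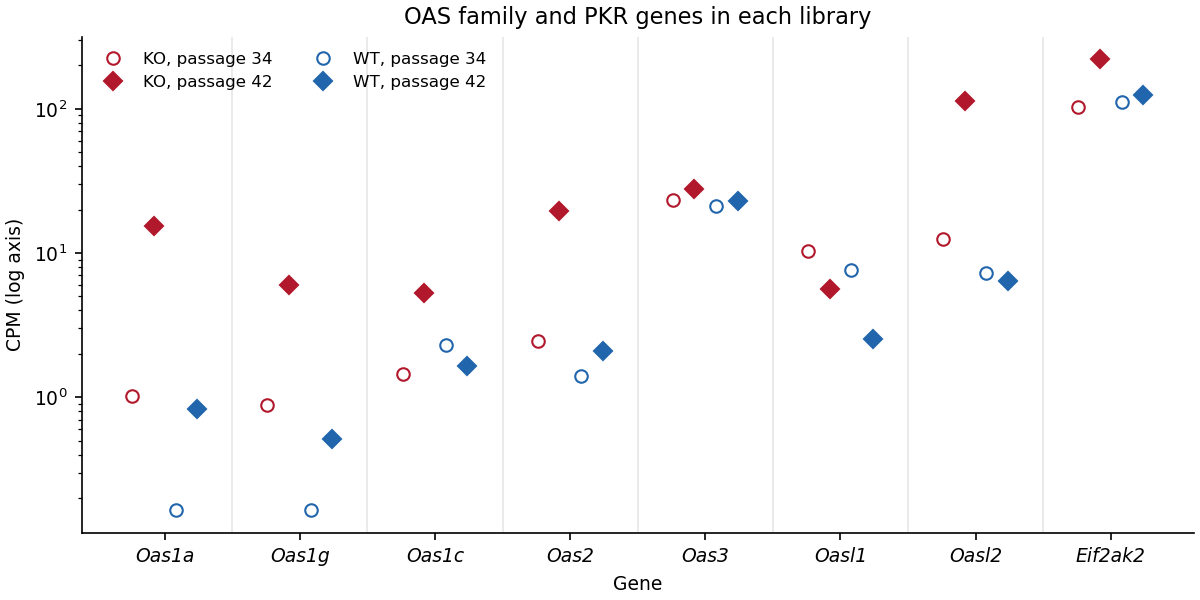
Level of each gene with reads in each library, in CPM on a log axis, with KO (red) left of WT (blue), open circles for passage 34 and filled diamonds for passage 42. The KO library of passage 42 is the highest of the 4 for every gene shown except Oasl1, and Oas3 spans only 21.1 to 28.0 CPM.

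Oasl2, one of the 2 OAS-like genes, whose products carry ubiquitin-like domains, was the only member called. It lies on chromosome 5 at 115346943 to 115362243 on the plus strand (NCBIM37), next to Oasl1 at 115373249 to 115387924. The ID NM_011854 had 197 reads (12.5 CPM) in KO and 89 reads (7.31 CPM) in WT at passage 34. At passage 42 it had 2231 reads (114 CPM) in KO and 101 reads (6.44 CPM) in WT. Both KO libraries lay above both WT libraries, and the KO library of passage 42 was far above the other 3. The KO over WT ratio of CPM was 1.71 at passage 34, with a 95% exact interval of 1.32 to 2.22, and 17.7 at passage 42, with an interval of 14.5 to 21.8. These intervals cover counting error only, with 1 library per genotype at each passage. Reads copied by PCR are not independent molecules, so even the counting error may be understated. The mean was 63.1 ± 71.6 CPM in KO and 6.88 ± 0.616 CPM in WT (SD, n = 2 each), and the fitted log2 fold change was 3.18 with a standard error of 0.74 and an adjusted p of 0.0468 by edgeR. The call was lost without the KO library of passage 42 (log2 fold change 0.75, adjusted p = 0.196), without the WT library of passage 34 (adjusted p = 0.172) or passage 42 (0.341), with DESeq2 (0.221), with a minimum of 1 CPM in all 4 libraries (0.0587) and with counts summed per gene symbol (0.0552). In the last 5 of these settings the log2 fold change was 3.07 to 3.31. It was kept under 7 of 13 alternatives. One of these, the prior count of 0.5, changes only the fold change and could not alter the call. Without the KO library of passage 34 the log2 fold change was 4.02. The adjusted p ran between 3.14e-40 and 0.341 over the 13, and the log2 fold change was above 0 in all of them.

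Oasl1, the other OAS-like gene, which encodes a protein without 2-5A synthesis known in the mouse as an inhibitor of Irf7 translation, was lower at passage 42 in both genotypes. The ID NM_145209 had 163 reads (10.3 CPM) in KO and 93 reads (7.64 CPM) in WT at passage 34, and 110 reads (5.61 CPM) in KO and 40 reads (2.55 CPM) in WT at passage 42. KO exceeded WT within each passage, yet the genotypes overlapped because of the drop between passages. The KO over WT ratio was 1.35 (95% counting interval 1.04 to 1.76) at passage 34 and 2.20 (1.52 to 3.24) at passage 42, while the fitted log2 fold change was 0.60 ± 0.49 (standard error) with an adjusted p of 0.718. With a replicate block, which takes up the change between passages, edgeR gave 0.71 with an adjusted p of 0.262. Of the 8 members with reads, Oasl1 alone was lower at passage 42 than at passage 34 in KO, with a ratio of 0.543 (0.423 to 0.696), and in WT its ratio was 0.334 (0.224 to 0.489). An antisense-strand gene, Gm13822, shares 38 bases of exon with Oasl1, and whether the counting used the strand is not stated in the methods read here.

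Oas1a, Oas1b, Oas1c and Oas1g encode OAS proteins with a single OAS unit, and those of Oas1a and Oas1g are known as active 2-5A synthetases. They lie with Oas2 and Oas3 in a stretch of 177 kb of chromosome 5, at 121180342 to 121357536. Oas1a had, with Oasl2, the highest KO over WT ratios at passage 42, and their intervals overlap. The ID NM_145211 had 16 reads (1.01 CPM) in KO and 2 reads (0.16 CPM) in WT at passage 34, and 302 reads (15.4 CPM) in KO and 13 reads (0.83 CPM) in WT at passage 42. Both KO libraries lay above both WT libraries, but at passage 34 the difference was between counts of 16 and 2. The ratio was 6.17 (95% counting interval 1.45 to 55.3) at passage 34 and 18.6 (10.7 to 35.3) at passage 42. The fitted log2 fold change was 3.70 ± 0.99 (standard error) and missed the threshold with an adjusted p of 0.0894. Oas1a passed the filter through the KO group alone, where its lower library had 1.01 CPM.

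Oas1g followed the same order of libraries at lower counts. The ID NM_011852 had 14 reads (0.89 CPM) in KO and 2 reads (0.16 CPM) in WT at passage 34, and 117 reads (5.97 CPM) in KO and 8 reads (0.51 CPM) in WT at passage 42. The ratio was 5.40 (1.24 to 48.9) at passage 34 and 11.7 (5.74 to 27.7) at passage 42. Both KO libraries lay above both WT libraries, but the lower KO library stood under 1 CPM and Oas1g was therefore not tested. Of the 50-base windows of the longest Oas1a transcript, 57.1% occur in an Oas1g transcript, and 54.0% of those of the longest Oas1g transcript occur in an Oas1a transcript. Reads from those parts cannot be assigned to 1 gene, and reads with a mapping quality of 20 or less were not counted, so the values of both genes rest on the parts that differ and their sharing of reads is uncertain.

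Oas1c went the other way at passage 34. The ID NM_033541 had 23 reads (1.46 CPM) in KO and 28 reads (2.30 CPM) in WT at passage 34, and 104 reads (5.31 CPM) in KO and 26 reads (1.66 CPM) in WT at passage 42. The KO library of passage 34 was the lowest of the 4 and that of passage 42 the highest, and the genotypes overlapped. The ratio was 0.633 (0.348 to 1.14) at passage 34, where the interval includes equality, and 3.20 (2.07 to 5.12) at passage 42. The fitted log2 fold change was 0.75 ± 0.54 (standard error) with an adjusted p of 0.675. Of 50-base windows of Oas1c, 10.7% occur in another gene's transcripts, most often in Oas1e. Oas1b, known as the flavivirus resistance gene that is truncated in many laboratory strains, had 0 reads under its ID NR_003507 in all 4 libraries, which allows up to 0.15 to 0.25 CPM (3 reads per library) of reads unique to that ID.

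Oas2 and Oas3 carry, as background, a pair and a trio of OAS units in 1 protein. For Oas2, the ID NM_145227 had 39 reads (2.47 CPM) in KO and 17 reads (1.40 CPM) in WT at passage 34, and 382 reads (19.5 CPM) in KO and 33 reads (2.10 CPM) in WT at passage 42. Both KO libraries lay above both WT libraries, though at passage 34 by a ratio of 1.77 whose interval of 0.977 to 3.33 includes equality. At passage 42 the ratio was 9.26 (6.48 to 13.6). The fitted log2 fold change was 2.56 ± 0.74 (standard error) with an adjusted p of 0.117, which missed the threshold. Oas2 was called under 4 of 13 alternatives and Oas1a under 4 of the 12 in which it was tested, among them the fit without the KO library of passage 34 for both.

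Oas3 was nearly level. The ID NM_145226 had 369 reads (23.4 CPM) in KO and 257 reads (21.1 CPM) in WT at passage 34, and 549 reads (28.0 CPM) in KO and 362 reads (23.1 CPM) in WT at passage 42. The lower KO library stood just above the higher WT library. The ratios were 1.11 (0.941 to 1.30) at passage 34 and 1.21 (1.06 to 1.39) at passage 42, and the fitted log2 fold change was 0.19 ± 0.25 (standard error) with an adjusted p of 0.859. The difference at passage 42 was outside counting error, but the comparison over both passages did not pass the test.

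Eif2ak2, which encodes PKR, had the most reads. It lies on chromosome 17 at 79251904 to 79281913 on the minus strand (NCBIM37). The ID NM_011163 had 1613 reads (102 CPM) in KO and 1362 reads (112 CPM) in WT at passage 34, and 4322 reads (220 CPM) in KO and 1968 reads (126 CPM) in WT at passage 42. The KO library of passage 34 was the lowest of the 4 and that of passage 42 the highest, so the genotypes overlapped, as they did for Oas1c. The ratio was 0.913 (0.849 to 0.982) at passage 34, below equality, and 1.76 (1.66 to 1.85) at passage 42, above it. The fitted log2 fold change was 0.43 ± 0.31 (standard error) with an adjusted p of 0.675. Exons of genes on the opposite strand, Gm16825 and n-R5s29, overlap 221 exonic bases of Eif2ak2.

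**Figure D2:**
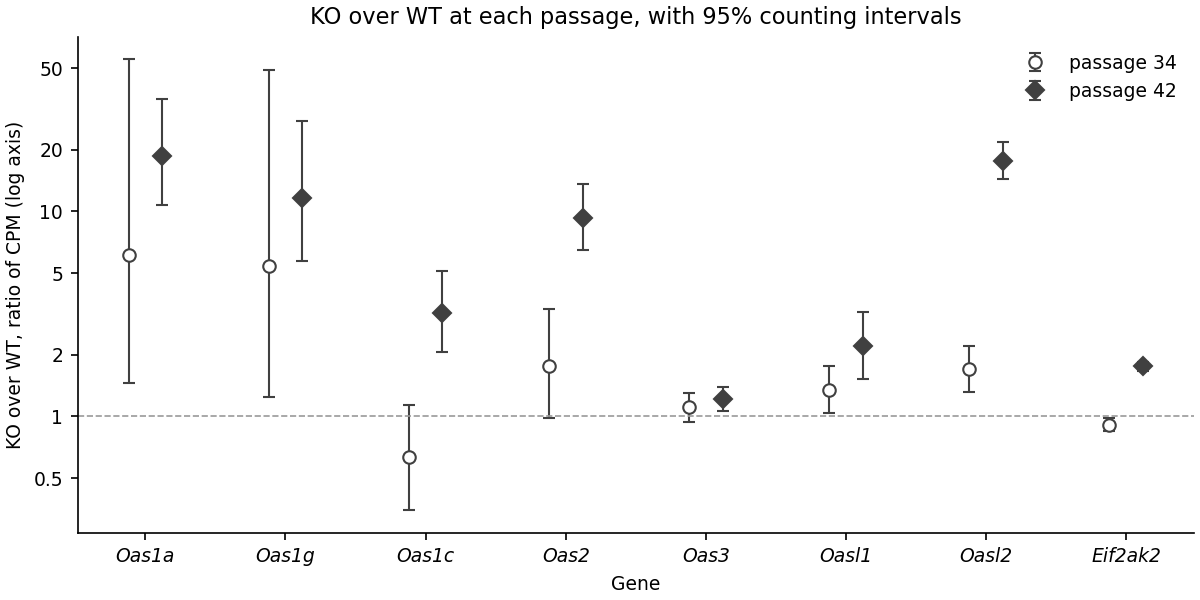
KO over WT ratio of CPM at passage 34 (open circles) and passage 42 (filled diamonds), 1 library per genotype at each, on a log axis, with bars for the 95% exact counting interval and a dashed line at 1. At passage 42 all 8 intervals lie above 1, between Oas3 at 1.21 and Oas1a at 18.6, whereas at passage 34 the interval lies above 1 for 4 genes (Oas1a, Oas1g, Oasl1 and Oasl2) and below 1 for Eif2ak2.

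At passage 42 the 95% counting interval of the KO over WT ratio lay above 1 for 8 of the 8 members with reads and below 1 for 0, as it did for 24.8% and 26.6% of all transcripts tested. At passage 34 it lay above 1 for 4 and below 1 for 1, against 30.9% and 24% of all transcripts. The members differed in size within 1 passage. With 2 reads added on average per library before taking logs, the log2 CPM difference between KO and WT at passage 42 was above 1 for 5 of the 7 tested members (Oas1a 4.02, Oasl2 4.12, Oas2 3.14, Oas1c 1.61 and Oasl1 1.10), as it was for 4.73% of the transcripts tested, and below 1 for Eif2ak2 (0.81) and Oas3 (0.28). Oas1g, which was not tested, had 3.26. At passage 34 it was above 1 for 1 of the 7, Oas1a with 1.97, against 6.99% of the transcripts tested, and it was 1.80 for Oas1g. The median over the 7 tested members, of which Oas1a entered through KO alone, was 0.43 at passage 34 and 1.61 at passage 42, beside 0.08 and -0.02 over all transcripts tested. Within KO, passage 42 exceeded passage 34 beyond counting error for 7 of the 8 members, with ratios between 1.20 for Oas3 and 15.2 for Oas1a, and with 9.12 (7.88 to 10.6) for Oasl2. Of all transcripts tested, 27.4% were higher and 29.6% lower at passage 42 beyond counting error in KO, and 24.6% and 19.1% in WT. Within WT, passage 42 exceeded passage 34 in this way for 2 of the 8 members, Oas1a at 5.05 (1.14 to 46.0), on 13 and 2 reads, and Eif2ak2 at 1.12 (1.05 to 1.20), and the WT ratio of Oasl2 was 0.881 (0.656 to 1.18). The interaction of genotype and passage was not tested, since it leaves no residual degrees of freedom.

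The make-up of the OAS family reads differed in the same library. Oasl2 took 197 of the 821 OAS family reads in KO (95% Wilson interval 21.2% to 27.0%) and 18.2% of 488 in WT (15.1% to 21.9%) at passage 34. At passage 42 it took 58.8% of 3795 reads in KO (57.2% to 60.3%) and 17.3% of 583 in WT (14.5% to 20.6%). Oas3 was the most frequent OAS transcript in the other 3 libraries, with 44.9% in KO and 52.7% in WT at passage 34 and 62.1% in WT at passage 42, against 14.5% in KO at passage 42. Oas1a had 7.96% in KO and 2.23% in WT at passage 42, and Oas2 had 10.1% in KO and 5.66% in WT.

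**Figure D3:**
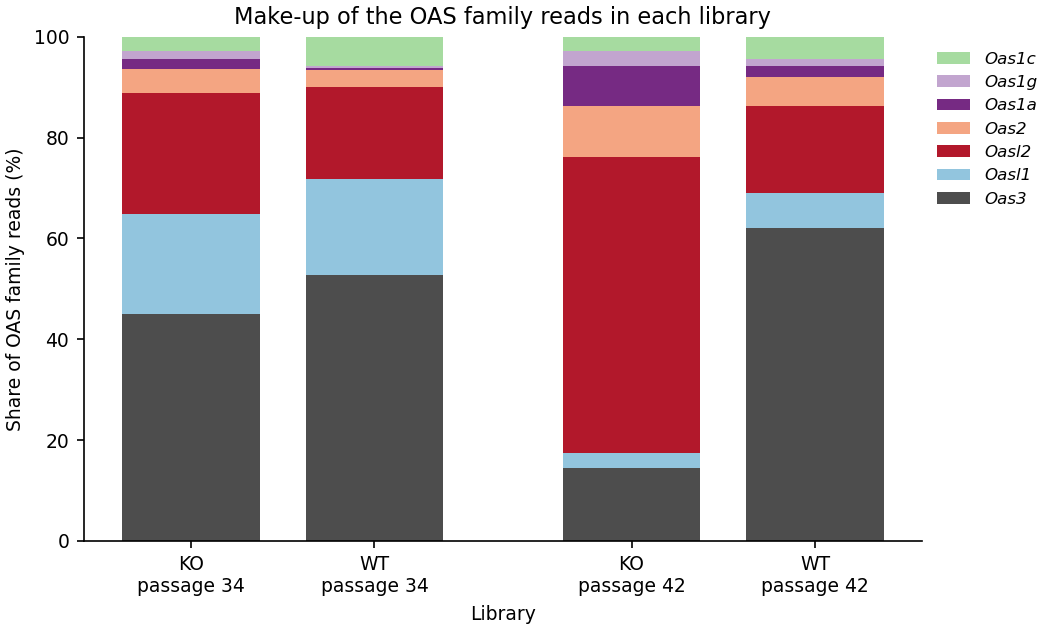
Share of the OAS family reads, in percent, that each gene takes in each library, with KO left of WT at each passage; each bar adds up to all OAS family reads of that library. Oas3 takes the largest share in 3 libraries, between 44.9% and 62.1%, and Oasl2 takes 58.8% in the KO library of passage 42.

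Levels were compared between genes per kb of the longest protein-coding transcript. In WT the order of CPM per kb was Eif2ak2 (26.0 and 29.1 at passages 34 and 42), Oas3 (4.47 and 4.89), then Oasl1 (3.50 and 1.17) and Oasl2 (2.34 and 2.06), whose ranges overlap, and Oas1c (1.00 and 0.724). Oas2 (0.353 and 0.531), Oas1a (0.086 and 0.436) and Oas1g (0.082 and 0.255) were lower, and each overlaps its neighbour in that order. The lengths include the stretches that Oas1a and Oas1g share, in which reads could not be counted, so the CPM per kb of these genes are understated and their place beside Oas2 is not settled. In KO at passage 34 the order by CPM per kb was nearly the same, with Eif2ak2 at 23.7, Oas3 at 4.95, Oasl1 at 4.73, Oasl2 at 3.996 and the other 4 between 0.442 and 0.636. In KO at passage 42, Oasl2 reached 36.4 CPM per kb, second to Eif2ak2 at 51.1, and Oas1a at 8.10 stood above Oas3 at 5.93 and Oas2 at 4.92.

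Promoter sequence was taken from RefSeq (GRCm38.p6) for the 7 members in its promoter table, as the 250 bases before the annotated start, and searched on both strands for the ISRE core GAAANNGAA and for GAS, TTCNNNGAA, which reads the same on both strands. The core was in 4 of the 7 windows (Oas1a, Oas1c, Oas1g and Oas3) and in 7.13% of all 32851 windows of the table, and GAS was in 2 (Oas1a and Eif2ak2) and in 7.02% of all windows. Each of the 4 held a pair of overlapping core matches on the same strand, on the gene's strand in Oas1a, Oas1g and Oas3 and on the opposite strand in Oas1c, 113 to 99 bases before the start. The pair in Oas1c also lies 22 to 8 bases before the start of Oas1b, which runs the other way and had 0 reads under its ID. The 100 bases before the start are shown for 2 members with a core and high ratios at passage 42 (Oas1a and Oas1g), for 1 with a core and a ratio near 1 (Oas3), and for Oasl2, which had a high ratio. Core and GAS matches are in capitals, each sequence runs 5' to 3' on the gene's strand, and the coordinates are chr5:120907526-120907625 (minus), chr5:120887614-120887713 (minus), chr5:120777660-120777759 (minus) and chr5:114896834-114896933 (plus).
Oas1a: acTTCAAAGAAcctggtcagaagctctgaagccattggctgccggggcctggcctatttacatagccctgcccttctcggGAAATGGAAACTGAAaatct
Oas1g: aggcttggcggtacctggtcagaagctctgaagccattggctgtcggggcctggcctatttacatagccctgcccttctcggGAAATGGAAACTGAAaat
Oas3: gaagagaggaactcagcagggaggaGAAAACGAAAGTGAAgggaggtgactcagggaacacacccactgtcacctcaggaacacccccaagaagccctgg
Oasl2: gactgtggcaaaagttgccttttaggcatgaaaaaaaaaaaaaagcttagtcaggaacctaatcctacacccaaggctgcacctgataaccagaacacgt

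The Oas1a and Oas1g stretches are the same at 92 of 100 bases when shifted by 2 bases, and their core matches lie 20 to 6 and 18 to 4 bases before the start. In Oas3 the core matches lie 75 to 61 bases before the start. The KO over WT ratios at passage 42 of the 4 members with a core before the start were 18.6, 11.7, 3.20 and 1.21, and those of Oasl1 and Oasl2, with no match in the window, were 2.20 and 17.7. The search was widened in all 7 members, after the windows were seen, to the 50 bases after the start. Eif2ak2 alone held the core there, as a pair of overlapping matches, GAAAACGAAACAGAA, 19 to 33 bases after the start, while 1.34% of all windows held the core there. A match is a description of the letters and not of a bound site.

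The neighbours of the 3 loci were set beside the members at passage 42. Within 250 kb on either side of Oasl1 and Oasl2, 14 other genes were tested with a lowest adjusted p of 0.148 by edgeR, and their log2 CPM differences between KO and WT at passage 42 ran between -1.01 and 0.58. Around the Oas genes, 6 other genes were tested with a lowest adjusted p of 0.425 and with differences between -0.61 and 0.61. Around Eif2ak2, 6 were tested and 1 was called, Qpct, with a fitted log2 fold change of -1.45 and an adjusted p of 0.0394. Gm6548, a gene on the same strand that starts after a gap of 607 bases beyond the annotated end of Eif2ak2, had a difference of 1.22 at passage 42, above the 0.81 of Eif2ak2 itself, and -0.43 at passage 34.

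**Figure D4:**
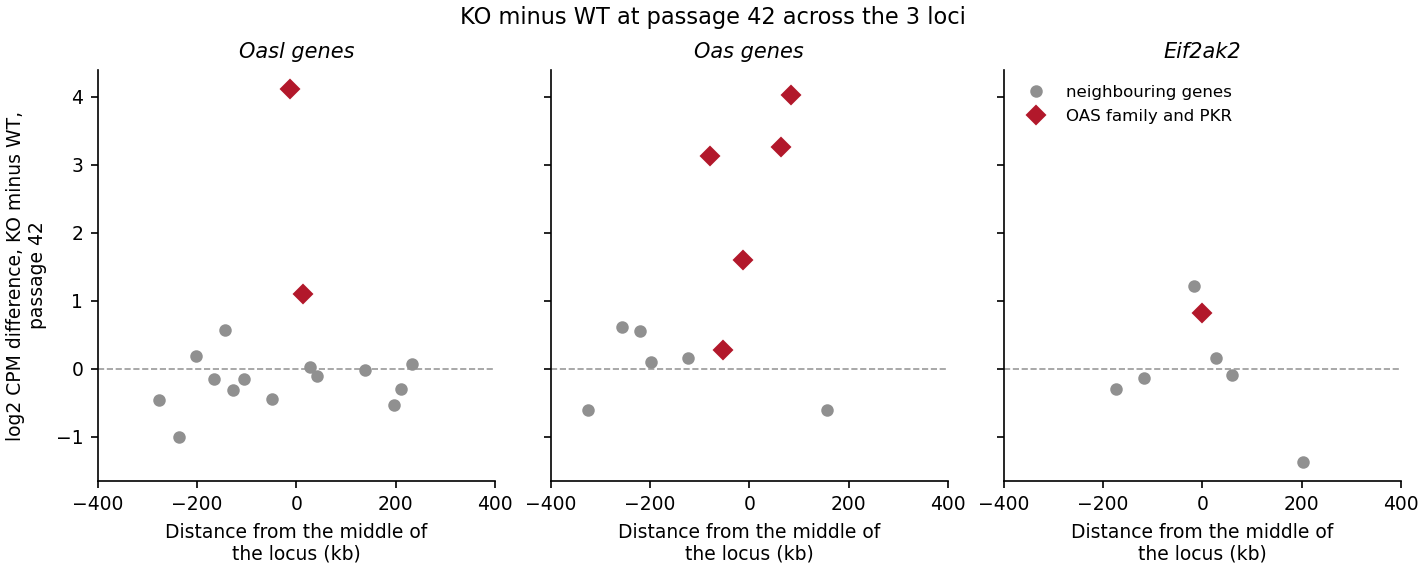
log2 CPM difference between KO and WT at passage 42 for the OAS family genes and Eif2ak2 (red diamonds) and for the other tested genes within 250 kb (grey circles), by distance in kb from the middle of each locus. The grey circles around the Oasl and Oas genes lie between -1.01 and 0.61, and 6 of the 7 diamonds there lie above all of them, while Oas3 at 0.28 lies among them.

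The rest of the pathway was read from lists of genes up and down stream, 43 genes of which 29 were tested and 1 was called. Of the tested genes, Eif2ak4, Tarbp2, Zbp1, Eif2b3, Atf4, Ifnar2, Irf1 and Ifih1 have 2 or 3 IDs and were read by the most abundant one. Reads in exons that their IDs share were not counted, so the levels of these genes may be understated. None of the 2 tested genes of the list on 2-5A breakdown was called by edgeR's quasi-likelihood or exact test or by DESeq2, and 0 had an unadjusted p under 0.05. Pde12, which degrades 2-5A, had a log2 fold change of -0.14 and Abce1, a ribosome recycling factor, -0.13. The 4 OAS1 paralogs outside the member list, Oas1d, Oas1e, Oas1f and Oas1h, stayed below 1 CPM in every library and were not tested.

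Of the other eIF2 kinases and PKR partners, 7 of 8 were tested and 0 were called by edgeR, with 3 at an unadjusted p under 0.05 (12.8% of all transcripts tested had one) and 1, Zbp1, called by DESeq2 and by edgeR's exact test. Zbp1, a sensor of Z-form nucleic acid, has 2 IDs. Under the more abundant it had 1.33 and 7.24 CPM in KO and 0.74 and 0.51 CPM in WT at passages 34 and 42. Its log2 fold change was 2.58 with an adjusted p of 0.0884, and it passed the filter through the KO group alone. Eif2ak3, which encodes the kinase PERK of the endoplasmic reticulum, had 43.8 and 52.7 CPM in KO and 75.5 and 80.1 CPM in WT. Both KO libraries were below both WT libraries, but the log2 fold change of -0.71 had an adjusted p of 0.138. Dnajc3, an inhibitor of PKR, and Prkra, an activator of PKR, had log2 fold changes of -0.44 and -0.45, with adjusted p-values of 0.386 and 0.594. Of the eIF2 list, 10 of 12 were tested and 0 were called by edgeR's quasi-likelihood or exact test or by DESeq2, with 2 at an unadjusted p under 0.05. Eif2s1, the subunit that PKR phosphorylates, had 186 and 213 CPM in KO and 139 and 122 CPM in WT, with a log2 fold change of 0.59 and an adjusted p of 0.207. Eif2b2, of the exchange factor, and Ppp1r15a, of the eIF2 phosphatase, had log2 fold changes of 0.65 and 0.47, with adjusted p-values of 0.280 and 0.408.

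Among the 10 genes of interferon signalling to ISGF3, 5 were tested and 1 was called. Stat2, the subunit that activates transcription in ISGF3, had 519 reads (32.9 CPM) in KO and 207 reads (17.01 CPM) in WT at passage 34, and 1869 reads (95.3 CPM) in KO and 294 reads (18.8 CPM) in WT at passage 42. Both KO libraries lay above both WT libraries, and the log2 fold change was 1.83 ± 0.41 (standard error) with an adjusted p of 0.0399. The call was lost when the KO library of passage 42 was left out (log2 fold change 0.77). It was also lost without the WT library of passage 34 (log2 fold change 1.79) or of passage 42 (1.88). It was kept under 10 of 13 alternatives, among them the prior count of 0.5, which could not alter it. Ifnar2, a chain of the type I interferon receptor, had a log2 fold change of 0.72 and an adjusted p of 0.223, and Ifnar1, the other chain, had 0.05. Ifnb1, the gene of interferon-beta, had 3 and 10 reads in KO and 3 and 4 reads in WT at passages 34 and 42, too few for the filter. Irf7 and Irf9 have 3 transcript IDs each, and reads in exons that the IDs share went to the ambiguous reads, so their levels were not measured here.

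Of the 6 double-stranded RNA sensors and adaptors, 5 were tested and 0 were called by edgeR's quasi-likelihood test and by DESeq2, with 4 and 3 at an unadjusted p under 0.05 (by edgeR 12.8% of all transcripts tested), and 1, Ifih1, was called by edgeR's exact test. Ifih1, which encodes MDA5, had 1.14 and 2.50 CPM in KO and 0.33 and 0.38 CPM in WT at passages 34 and 42 under the more abundant of its 2 IDs, with a log2 fold change of 2.01 and an adjusted p of 0.0609. Ddx58, which encodes RIG-I, had 61.7 and 279 CPM in KO and 58.2 and 57.4 CPM in WT, with a log2 fold change of 1.55 and an adjusted p of 0.176. Dhx58, a regulator of both, had 4.94 and 29.0 CPM in KO and 7.40 and 5.04 CPM in WT, with a log2 fold change of 1.44 and an adjusted p of 0.358. For Ddx58 and Dhx58, as for most OAS genes, the KO library of passage 42 was far above the other 3. Ticam1, the adaptor of Tlr3, had 18.6 and 21.3 CPM in KO and 32.0 and 37.2 CPM in WT, with a log2 fold change of -0.81 and an adjusted p of 0.140. The median log2 fold change of the 5, of which Ifih1 entered through KO alone, was 1.44. That of the 29 tested genes of all lists was 0.07, and over all transcripts tested it was 0.02. Among the 29, Ifih1 and Zbp1 passed the filter through KO alone and Irf1 through WT alone.

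**Figure D5:**
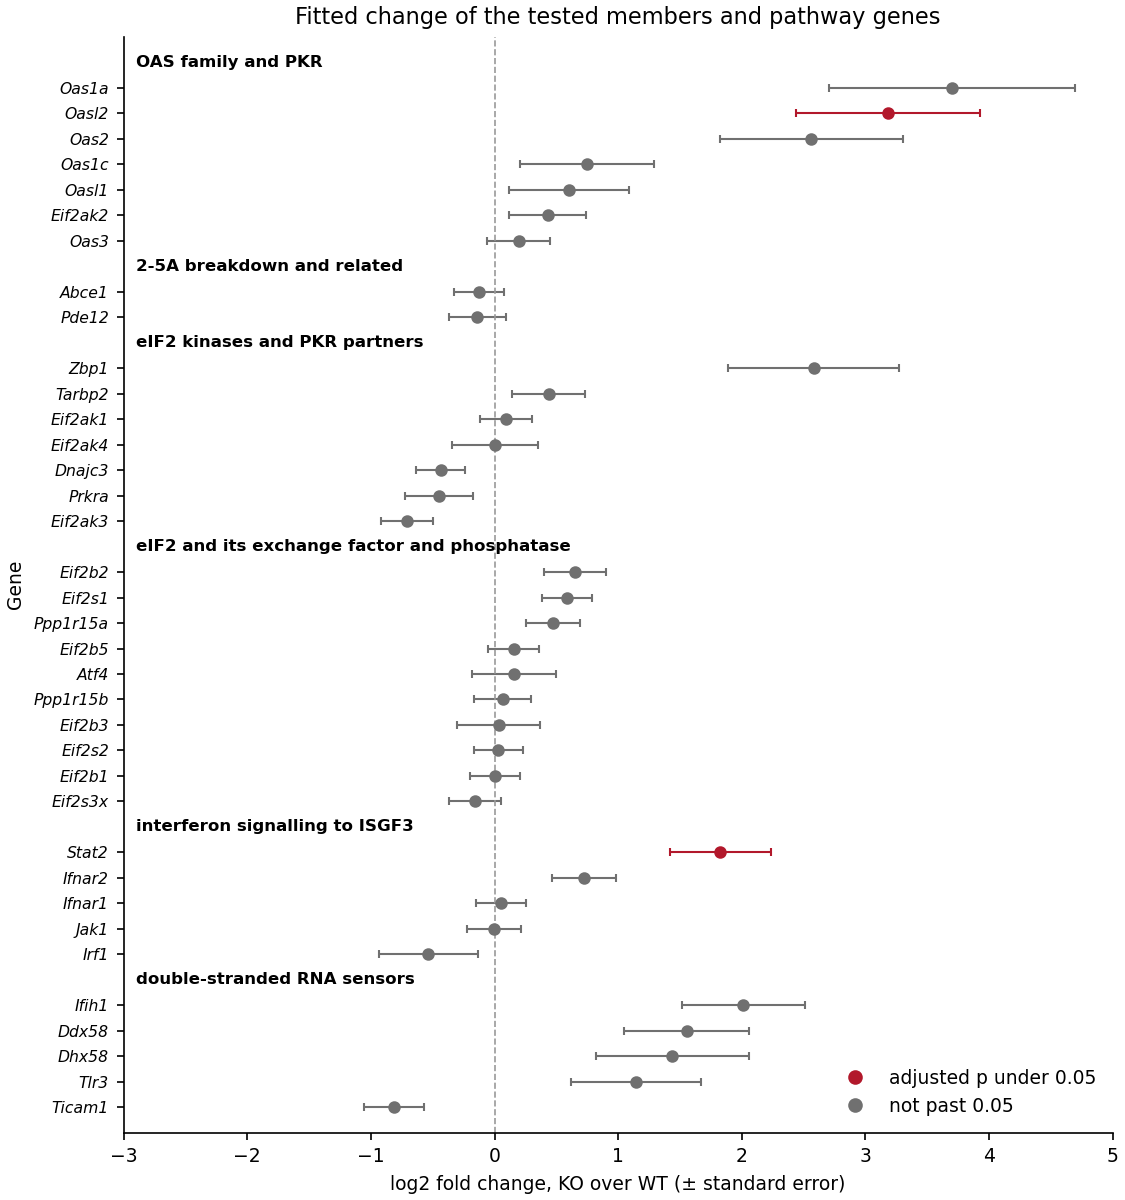
Fitted log2 fold change of KO over WT for the 7 tested members (top) and the 29 tested pathway genes, with bars for the standard error; red marks an adjusted p under 0.05 and grey the rest. Red marks only Oasl2 at 3.18 and Stat2 at 1.83, while Oas1a at 3.70 has a larger value with a wider bar.

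The transcripts whose pattern over the 4 libraries was nearest to that of the tested members were found among 10163 transcripts with a mean of at least 50 reads, by the root mean square distance between their log2 CPM, centred on the mean over libraries, and the mean of the 7 members. The mean centred values of the members were -0.21 and 1.52 in KO and -0.69 and -0.63 in WT at passages 34 and 42. Of the 7, Oas1a entered through KO alone. Oas3 was nearly level and Oasl1 was highest in the KO library of passage 34, so the mean is not the pattern of every member. The nearest was Col12a1, which encodes a chain of collagen XII, with a distance of 0.10 and with 434 and 1506 CPM in KO and 273 and 327 CPM in WT. Then came Pcdhga8, a clustered protocadherin, at 0.11, Cdo1, a cysteine dioxygenase, at 0.11, Isg15, an interferon-induced ubiquitin-like modifier, at 0.13, and Irgm1, an interferon-inducible GTPase, at 0.14. Isg15 had 13.2 and 44.1 CPM in KO and 8.46 and 11.5 CPM in WT. This is a description over 4 libraries, in which 1 library sets most of the shape.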

How the data were processed

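RNA sequencing counts of 4 libraries, 2 of *Tmpo* KO and 2 of *Tmpo* WT imMDFs, were used, and genotype, passage and replicate came from the sample labels. The deposited values are raw counts per RefSeq transcript, which the authors made by adapter trimming (cutadapt), mapping to NCBI37/mm9 (TopHat2 2.0.9) and counting of reads above a mapping quality of 20 (htseq-count, strand setting not stated). Reads that fit more than 1 transcript ID were not counted, and unassigned reads stayed out of library sizes (49.9% to 56.5% of reads had no feature). Symbols were matched by RefSeq accession to 32304 of 32757 IDs. Positions came from GENCODE vM1 (NCBIM37).

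KO was fitted against WT without a block in edgeR 4.0.16 under R 4.3.3 (TMM, quasi-likelihood F-test, adjusted p under 0.05 over 13855 transcripts with at least 1 CPM in both libraries of at least 1 genotype), after a check on simulated counts. Standard errors came from the fold change and the test statistic. Within a passage, log2 CPM had a prior count of 2, and ratios had exact binomial 95% intervals. Tables and plots were made with Python 3.11.15 (pandas 2.3.3, numpy 2.4.6, scipy 1.17.1, matplotlib 3.10.9). The 13 alternatives were RLE factors, library totals, DESeq2 1.42.0, edgeR's exact test, no filter, 1 CPM in all 4 libraries, counts summed per symbol, a prior count of 0.5, a replicate block and each library left out. The prior count of 0.5 changes only the fold change, so its calls are those of the main fit for every gene. Named were all 9 members, in each of 6 lists every gene called and otherwise up to 4 with the smallest p, and the 5 nearest patterns; other genes were named after their values were seen. Some genes of the planned lists are not reported here. Members, lists and tests were chosen with earlier results of these data known.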

Additional observations from a re-analysis of the deposited data

Results flagged for a closer look

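The difference between KO and WT had opposite signs at the 2 passages for 2 of the 8 members with reads. The share of all transcripts with opposite signs was not computed. For Oas1c the log2 CPM difference, KO minus WT, was -0.62 at passage 34 and 1.61 at passage 42. The value at passage 34 rests on 23 and 28 reads, and the counting interval of the ratio (0.348 to 1.14) includes equality. For Eif2ak2 it was -0.13 at passage 34 and 0.81 at passage 42. Each value rests on 1 library per genotype, and whether the difference itself differs between the passages was not tested. The other 6 members were higher in KO at both passages. With 2 libraries per genotype, no library could be compared with its group as an outlier.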

How the results depend on the processing

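Against 381 transcripts (2.75%), 1 of 7 tested members and 1 listed pathway gene called, RLE size factors gave 423 (3.05%), 1 and 1. Library totals alone gave 392 (2.83%), 1 and 1. DESeq2 called 545 transcripts (3.93%), 0 members (3 at an unadjusted p under 0.05) and 2 listed genes. edgeR's exact test called 613 (4.42%), 3 and 3. No filter on low counts gave 740 of 24857 transcripts (2.98%), 4 of 8 tested members, Oas1g among them, and 6 listed genes. A minimum of 1 CPM in all 4 libraries called 315 transcripts (2.54%) and 0 members (2 at an unadjusted p under 0.05, Oas1a no longer tested). Counts summed per gene symbol called 365 (2.67%) and 0 members (3 unadjusted). The share of all transcripts at an unadjusted p under 0.05 was computed for the main fit alone (12.8%). With each library left out in turn, transcripts called ran from 109 to 1291, members from 0 to 6 and listed genes from 0 to 6. The 6 members were called without the KO library of passage 34, that is with the KO library of passage 42 alone against WT, and 0 were called without that library (2 at an unadjusted p under 0.05). In these fits the lone library of a genotype is assumed to vary like the other genotype. Over the same fits the log2 fold change of Oas1c ran from -0.49 to 1.38, of Oas3 from -0.021 to 0.34 and of Eif2ak2 from -0.32 to 0.89, and the 3 negative values came without the KO library of passage 42. The cause was not tested. Oas1a, Oasl2, Oas2 and Oasl1 stayed above 0 in every alternative in which they were tested.

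A replicate block called 1092 transcripts (7.88%), 3 of 7 tested members (Oas1a, Oas2 and Oasl2) and 7 listed genes. The numbers mark the passage alone and no label pairs the libraries further, so the block was kept as an alternative. Without it, the change between passages stays in the spread. Deviations of same-numbered libraries from their genotype means correlated at 0.18 over 13855 transcripts. With 2 libraries per genotype the opposite matching gives -0.18 by construction, so this value cannot decide whether to block. Low counts limit Oas1a and Oas1g, with 2 reads each in WT at passage 34, and Oas1b, with 0 in all 4 libraries.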
